A study of Arabidopsis thaliana with 9 samples.

Results

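In roots of a line that overexpresses the regulator SCL3, 170 of 22746 plant probe sets stood at least 1.5 times above every other array of the study. These transcripts were selected on the signals themselves. A probe set was taken when its lowest signal on the 3 SCL3 OE arrays was at least 1.5 times its highest signal on the 6 Col-0 and scl3 arrays and its mean SCL3 OE signal was at least 200. The 170 are what remained of 180 after 10 probe sets, among them those of SWEET3, IVD, XTH21 and EXPB1, were left out by name. The mirrored rule, which takes probe sets whose highest SCL3 OE signal lies that far below every other array, finds 267. Since the values of the SCL3 OE arrays chose the transcripts, their height in SCL3 OE is given below as a description, with no test.

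The study measured total RNA of whole Arabidopsis thaliana roots, grown on MS medium and taken at 7 days after germination, on Affymetrix ATH1 arrays. It holds 3 arrays of SCL3 OE, a line that overexpresses SCL3, 3 arrays of the mutant scl3 (allele scl3-1) and 3 arrays of the wild type Col-0, and all 3 groups have the Col-0 background. The promoter of the overexpressing construct and the number of independent lines are not given in the sources used here. The question behind the design is how root transcripts change when SCL3 is in excess and when it is lost.

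SCL3 is a plant-specific GRAS protein of the root endodermis, the layer that surrounds the vascular tissue and bears the Casparian strip. It is known to promote gibberellin responses by opposing the DELLA repressors, which are GRAS proteins too, and to act with SHORT-ROOT and SCARECROW in the ground tissue. GRAS proteins have no classical DNA-binding domain and are known to reach promoters through partners such as the IDD zinc fingers. SCL3's own probe set is unnamed in the annotation, and its signal is not given.

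The Col-0 and scl3 arrays fall into separate sets, which touches every value below. The arrays were clustered on the 45 probe sets of spiked-in control RNA. The number of clusters, 3, was fixed beforehand, with the split known from earlier results of these data. Clustering put replicates 1 and 2 of scl3 and Col-0 together (set 1), replicate 3 of both groups together (set 2) and the 3 SCL3 OE arrays together (set 3). For SCL3 OE, genotype and array set therefore cannot be told apart. Array medians ran from 179 to 182 in SCL3 OE and from 158 to 191 on the other arrays, and the brightest probe set reached 24106 to 28468 in SCL3 OE against 37734 to 59917 elsewhere. Summed signals of the 3 named photosynthesis markers (RCA, LHCB4.1 and PRK) were 1491 to 1880 in SCL3 OE, 476 to 700 in set 1 and 50011 to 53588 in set 2, with PRK at 17.6 to 45.2 in SCL3 OE. Those of the 3 named root hair markers (EXPA7, EXPA18 and XTH26) were 2324 to 2503 in SCL3 OE, 2728 to 3629 in set 1 and 730 to 1139 in set 2. Single markers differed in direction. EXPA7 was 937 to 1126 in SCL3 OE and 641 to 917 in set 1. EXPA18 was 1253 to 1406 and 1596 to 2062, and XTH26 was 96.5 to 104 and 491 to 650. The 2 named cortex markers summed to 385 to 517 in SCL3 OE, 280 to 356 in set 1 and 6001 to 6801 in set 2. AT1G09750 was 311 to 430 in SCL3 OE, 125 to 208 in set 1 and 5009 to 5440 in set 2. AT1G62500 was 69.8 to 87.0, 116 to 183 and 992 to 1362 in that order. Both were high in set 2 together with the photosynthesis markers, and what their signal there says about cortex was not tested. The 2 named markers of dividing cells (AUR1 and AUR2) summed to 731 to 881, 822 to 996 and 417 to 496 in that order. No gene of the root cap, suberin, xylem or phloem lists had a named probe set. The part of these tissue signals in the results below was not tested, and in whole roots fewer cells of a type and less RNA per cell cannot be told apart.

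Across the 170 transcripts the ratio of the lowest SCL3 OE signal to the highest other signal ran from 1.5004 to 4.67, with a median of 1.73. It was at least 2 for 46 of them and at least 3 for 8. Mean SCL3 OE signals ran from 209 to 9534, a span of dim and bright probe sets. The 3 SCL3 OE arrays lay close together, with a median coefficient of variation of 7.71%, against 34.5% in scl3 and 34.9% in Col-0. Over the 4 arrays of set 1 alone it was 11.8%. Acting on the lowest SCL3 OE signal, the rule favours close SCL3 OE arrays, while scl3 and Col-0 each span sets 1 and 2. The lowest of the 6 scl3 and Col-0 arrays was scl3 replicate 3 for 93 transcripts and Col-0 replicate 3 for 52. Replicate 3 was the highest SCL3 OE array for 75 transcripts, replicate 2 for 53 and replicate 1 for 42.

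**Figure D1:**
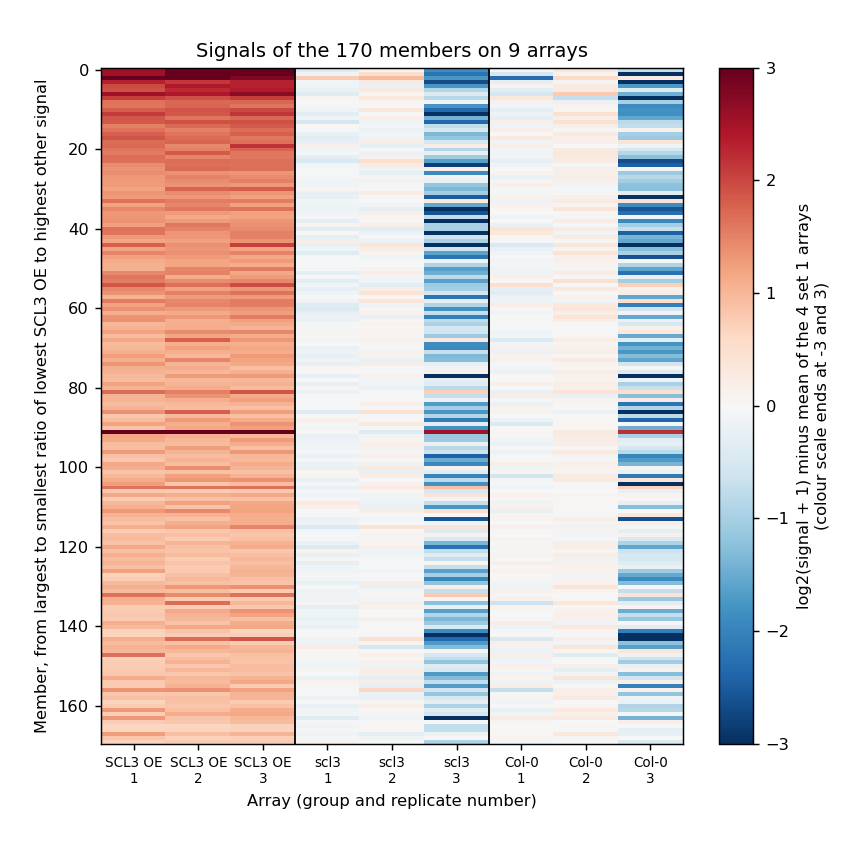
Heat map of log2(signal + 1) of the 170 transcripts (rows, ordered by the ratio that chose them) on the 9 arrays (columns), each minus the mean of the 4 set 1 arrays. The SCL3 OE columns are red throughout, as the rule requires, and replicate 3 of scl3 and Col-0 is mostly blue.

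On the log2 scale, SCL3 OE stood a median of 1.15 above set 1 (range 0.66 to 3.60) and 2.04 above set 2, while all 13647 tested probe sets had medians of 0.01 and 0.39. The median difference of SCL3 OE was 1.44 against Col-0 and 1.52 against scl3. These comparisons share the SCL3 OE arrays. Against set 1, 124 transcripts differed by more than 1, which is a doubling, and 46 by less. Just inside the ratio threshold stood ACT11, AT1G78260 and AT1G15740, with ratios of 1.501, 1.501 and 1.503, and just outside it AT1G08590, with 1.496. Just inside the mean signal threshold stood AT1G49030, at 209, and AT1G29180, at 223. Just outside it, with ratios between 1.67 and 2.20, stood the iron-response factor BHLH101 at 199.5, UGT76E2 at 191, AT2G17300 at 191, AT3G18450 at 189.8 and AT1G02460 at 178.

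A single gene is named by the annotation for 74 of the 170 probe sets, several genes for 2, and 94 are unnamed here. The probe set with the largest ratio is among the unnamed, with 656, 879 and 949 in SCL3 OE against at most 140.5 elsewhere. Of the named genes, 55 could be placed in 7 groups by what their proteins are known to do. The groups are 13 proteins of the cell wall or the secretory path, 14 metabolic enzymes, 6 membrane and transport proteins, 10 kinases and other signalling proteins, 5 proteins of transcription and RNA, 5 ubiquitin ligases and zinc fingers of protein turnover and 2 of the cell cycle and cytoskeleton. Median log2 differences of SCL3 OE from set 1 were 1.32, 1.28, 1.03, 1.07, 1.16, 1.09 and 0.82 in that order. The ranges of the groups overlap, and no difference between them was tested.

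**Figure D2:**
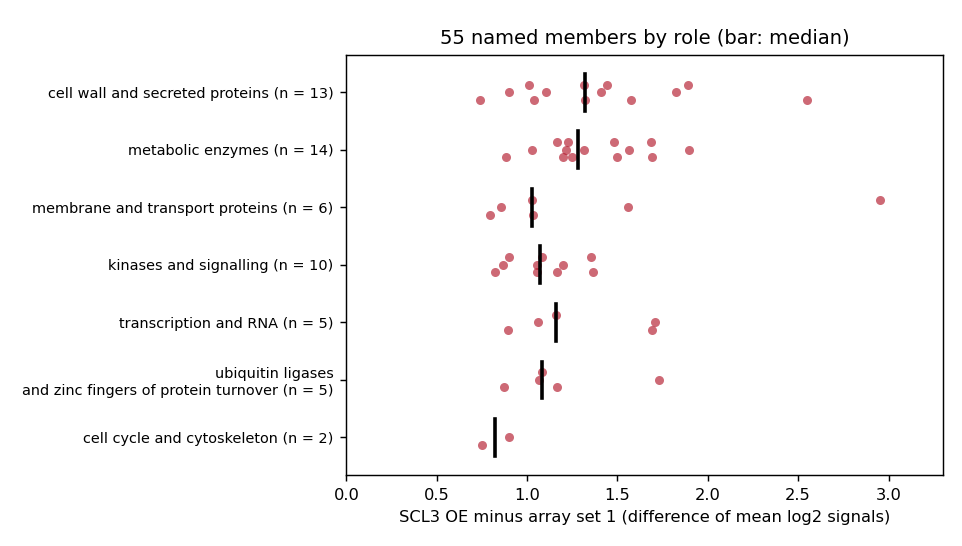
Difference between the mean log2 signals of SCL3 OE and array set 1 for the 55 named genes with a known role, 1 point per gene, with bars at the medians. The medians run from 0.82 to 1.32 and the points of the groups overlap.

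Secreted and wall proteins held the largest difference among the tested named genes, that of AT4G07820, a PR-1-like protein of the CAP family, whose members are small secreted proteins. Its signal was 2887, 2634 and 3242 in SCL3 OE, 387, 526 and 365 in scl3 and 348, 855 and 181 in Col-0, so every SCL3 OE array was at least 3.08 times the highest other array, and the mean was 6.33-fold that of Col-0. Col-0 replicate 2 was the highest of the other arrays and Col-0 replicate 3 the lowest. AT4G31470, a second CAP protein, had 651, 569 and 613 in SCL3 OE, 168, 223 and 96.4 in scl3 and 189.7, 245 and 85.1 in Col-0. Its SCL3 OE mean was 3.53-fold that of Col-0, with both set 2 arrays below 100. AT4G22460, which resembles lipid-transfer proteins, had 1064, 1127 and 1118 in SCL3 OE, 209, 277 and 57.6 in scl3 and 329, 409 and 168 in Col-0, a mean 3.66-fold that of Col-0 and 6.08-fold that of scl3. Each scl3 array of this gene lay below the Col-0 array of the same number.

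Class III peroxidases, secreted enzymes that cross-link or loosen wall polymers, gave 2 of the wall transcripts. AT3G01190 had 8544, 8027 and 8671 in SCL3 OE, 2414, 3266 and 1011 in scl3 and 2883, 4019 and 1575 in Col-0, and its mean of 8414 ± 341 in SCL3 OE was 2.98-fold the 2826 ± 1223 in Col-0 (SD, n = 3 each). AT5G15180 had 1504, 1418 and 1457 in SCL3 OE, 435, 595 and 164 in scl3 and 597, 754 and 383 in Col-0. Both were highest in SCL3 OE, intermediate on the set 1 arrays and lowest on scl3 replicate 3. SBT4.12, a subtilisin-like protease of the apoplast, had 6554, 7221 and 7181 in SCL3 OE, 3348, 3493 and 930.3 in scl3 and 3190.0, 3567 and 975 in Col-0, which is 2.71-fold on the means and about the same in scl3 and Col-0. AT4G30450, a glycine-rich protein, had 6214, 5811 and 5723 in SCL3 OE, 2701, 3625 and 1372 in scl3 and 3004, 3431 and 1295 in Col-0. AT1G31710, a copper amine oxidase, which makes hydrogen peroxide from polyamines, had 312, 268 and 330.2 in SCL3 OE, 79.6, 66.7 and 39.3 in scl3 and 120.4, 80.9 and 139 in Col-0. On this probe set of the gene the SCL3 OE mean was 2.68-fold that of Col-0 and 4.91-fold that of scl3, and no scl3 array reached a Col-0 array.

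Further wall transcripts were picked by role after their values were seen. AT1G19900, of the galactose oxidase family, had 899.5, 861 and 895 in SCL3 OE, and scl3 replicate 3 was at 18.2 while the other scl3 arrays were at 296 and 369. AT5G51500, a pectin methylesterase, which removes methyl groups from wall pectin, had 467, 351 and 373 in SCL3 OE, and Col-0 replicate 3 was at 3.20 with the other Col-0 arrays at 191 and 189. AT4G20460, which resembles epimerases of UDP sugars, had 1039.8, 1163 and 1027 in SCL3 OE, 646, 636 and 174 in scl3 and 627, 662 and 153 in Col-0, a difference of 0.74 from set 1 and 2.71 from set 2 on the log2 scale. The GDSL lipase AT2G19060 and the aspartic protease AT3G51350 had ratios of 1.87 and 1.73.

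**Figure D3:**
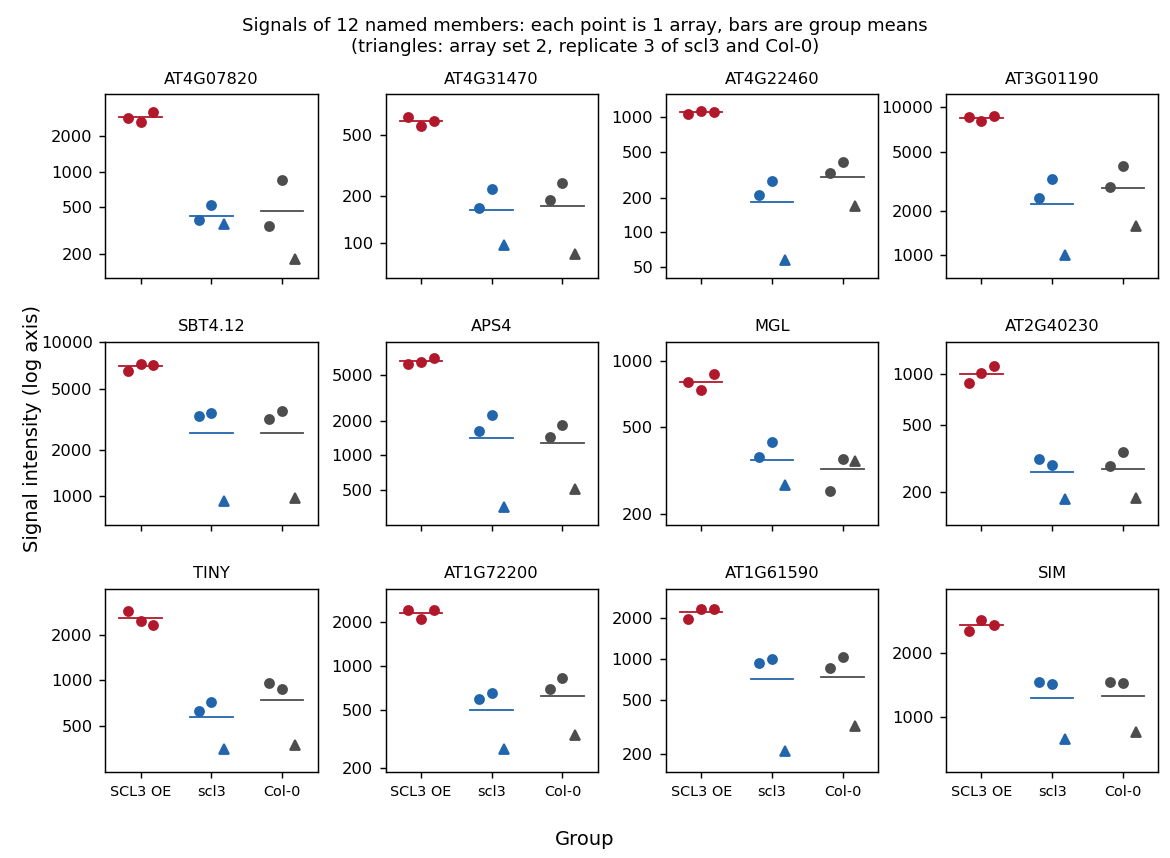
Signal on a log axis for 12 of the named transcripts, with 1 point per array, horizontal bars at the group means and triangles for replicate 3 of scl3 and Col-0. In each panel all 3 SCL3 OE points lie above the other 6, and in all 12 the scl3 triangle is the lowest scl3 point, as for AT4G22460 at 57.6.

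Metabolic enzymes were led by APS4, an ATP sulfurylase, which carries out the first step of sulfate assimilation. Its signal was 6244, 6541 and 7025 in SCL3 OE, 1619, 2247 and 353 in scl3 and 1454, 1859 and 504 in Col-0, a mean 5.19-fold that of Col-0, and its set 2 arrays were far below its set 1 arrays. MGL, methionine gamma-lyase, which breaks down methionine, had 800.4, 738 and 877 in SCL3 OE, 366, 427 and 272 in scl3 and 256, 358 and 351 in Col-0. This is 2.50-fold on the means, and scl3 and Col-0 overlapped. AT2G40230, an acyltransferase of the BAHD family, had 886, 1014 and 1106 in SCL3 OE, 314, 292 and 184 in scl3 and 287, 348 and 185 in Col-0, and AT5G07080, a second BAHD enzyme, had 796, 666 and 805 in SCL3 OE and at most 394 elsewhere. UGT73B1, a glycosyltransferase, had 917, 1172 and 1132 in SCL3 OE, 348, 326 and 412 in scl3 and 361, 409 and 352 in Col-0, so its other 6 arrays lay within 326 to 412, set 2 included. GAT1_2.1, a glutamine amidotransferase-like protein, had 1375, 1621 and 1696 in SCL3 OE, 627, 564 and 753 in scl3 and 595, 872 and 652 in Col-0, again with no gap between the array sets.

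AT1G12010, an ACC oxidase, the enzyme type of the last step of ethylene synthesis, had 811, 826 and 734 in SCL3 OE, 302, 484 and 212 in scl3 and 191, 357 and 344 in Col-0. AT5G57655, a xylose isomerase, had 1691, 1511 and 1952 in SCL3 OE, 467, 511 and 865 in scl3 and 463, 703 and 761 in Col-0, and here the set 2 arrays were the highest of the other 6. The esterase and hydrolase-like proteins AT5G24230, AT5G06570, AT5G14390 and AT2G47630 had ratios of 2.08, 1.90, 1.88 and 1.53. These enzymes, like the other members named outside the rule for named genes, were picked by role after their values were seen.

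In the membrane group, AT1G49030, of the PLAC8 family, had the largest ratio of all named transcripts (3.66) and also the lowest mean signal of the 170. Its signals were 213, 226 and 189 in SCL3 OE, 44.8, 51.5 and 7.08 in scl3 and 4.57, 39.0 and 31.1 in Col-0, and a fold of such low values is imprecise. Its family relative AT1G11380 had 866, 899 and 774 in SCL3 OE, 429, 405 and 375 in scl3 and 392, 427 and 431 in Col-0, 2.03-fold on the means. AT5G65380, a MATE-type efflux carrier, had 2547, 2208 and 2528 in SCL3 OE, 761, 866 and 1406 in scl3 and 835, 826 and 1084 in Col-0, and like the xylose isomerase it was higher in set 2 than in set 1. AT5G35200, an adaptor of clathrin-coated vesicles, and AT5G26740, a membrane protein, had ratios of 1.71 and 1.65, and AT1G68710, a lipid-flipping P4-ATPase, 1.58.

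Signalling proteins included AT1G61590, SCHENGEN1, a receptor-like cytoplasmic kinase of the endodermis that acts with the receptor kinase SGN3 in sealing the Casparian strip. AT1G61590 had 1969.9, 2324 and 2345 in SCL3 OE, 944, 1003 and 211 in scl3 and 855, 1046 and 323 in Col-0, a mean 2.99-fold that of Col-0 and a log2 difference of 1.20 from set 1. SGN3, which is no member, had 572, 699 and 578 in SCL3 OE, 603, 644 and 115 in scl3 and 590.4, 716 and 132 in Col-0, so that no SCL3 OE array exceeded the highest set 1 array. AT1G61590 and SGN3 were the only named genes of the 10 on the endodermis list. CML43, a calmodulin-like calcium sensor, had 566, 672 and 636 in SCL3 OE, 346, 367 and 211 in scl3 and 329, 369 and 228 in Col-0, and AT4G13440, an EF-hand protein, had 275, 294 and 272 in SCL3 OE, 91.4, 127 and 52.1 in scl3 and 106, 115 and 87.7 in Col-0. The leucine-rich repeat receptor kinases AT5G59680, AT5G24100 and AT1G51790 had ratios of 1.94, 1.78 and 1.68.

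Among regulators of transcription, TINY, an AP2-type factor of the DREB branch known to restrict growth when overexpressed, had 2894, 2500.1 and 2349 in SCL3 OE, 629, 723 and 349.8 in scl3 and 966, 874 and 371 in Col-0. Its mean was 3.502-fold that of Col-0 and 4.55-fold that of scl3, and its set 2 arrays were the lowest. AT1G76590, a PLATZ zinc finger protein, had 722, 758 and 717 in SCL3 OE, 191, 259 and 156 in scl3 and 209, 252 and 296 in Col-0, with the SCL3 OE arrays close together and scl3 and Col-0 overlapping. AT2G47890, a B-box zinc finger protein, had 2163, 1781 and 2201 in SCL3 OE and at most 979.8 elsewhere. The RNA-binding proteins AT5G56140 and AT1G78260 stood near the threshold, with ratios of 1.59 and 1.501.

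Of the proteins of ubiquitin-dependent turnover, AT1G72200, a RING-H2 protein of the ATL type, had 2381, 2076 and 2379 in SCL3 OE, 591, 649.6 and 269 in scl3 and 695, 828 and 337 in Col-0, 3.68-fold on the means of SCL3 OE and Col-0. AT1G74770, a BRUTUS-like ubiquitin ligase known to restrain the iron deficiency response in roots, had 764, 939 and 941 in SCL3 OE, 329, 423 and 39.1 in scl3 and 388, 428 and 47.7 in Col-0. Its set 2 arrays were below 50 while its set 1 arrays were at 329 to 428. AT2G36320, a stress-associated A20/AN1 zinc finger protein, had 4704, 5273 and 5399 in SCL3 OE, 2091, 2454 and 1765 in scl3 and 2176, 3026 and 1908 in Col-0. SIM, an inhibitor of cyclin-dependent kinases known for endoreduplication in trichomes, had 2537, 2859 and 2725 in SCL3 OE, 1464, 1426 and 787 in scl3 and 1468, 1446 and 848 in Col-0, and its 4 set 1 arrays lay within 1426 to 1468. ACT11, an actin, had 689, 623 and 636 in SCL3 OE, 374, 349 and 383 in scl3 and 415, 406 and 385 in Col-0, with the 6 other arrays within 349 to 415.

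The 19 named genes without an assigned role are given by their range, with ratios from 1.503 to 2.51. Of these AT4G01140 had 329, 305 and 338 in SCL3 OE, 102, 93.7 and 75.4 in scl3 and 121, 109 and 115 in Col-0. AT2G44380, a protein with cysteine- and histidine-rich C1 domains, had 2440.4, 2802 and 2899.9 in SCL3 OE, 958, 1124 and 646 in scl3 and 1073, 1367 and 1473 in Col-0. AT5G26280, a TRAF-like protein, had 5210.2, 5174 and 4978 in SCL3 OE, 3092, 2565 and 1699 in scl3 and 2754, 3044 and 1857 in Col-0, with both set 2 arrays below the set 1 arrays.

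A gene read by more than 1 probe set did not always give the same picture. The second named probe set of AT1G31710 had 1998, 2411 and 2041 in SCL3 OE, 2301, 2671 and 541 in scl3 and 2309.7, 2253 and 904 in Col-0, so no SCL3 OE array exceeded the highest set 1 array, and the 2 probe sets of this gene disagree. For AT1G74770 the second probe set had 75.7, 84.8 and 88.6 in SCL3 OE, 61.7, 54.8 and 2.65 in scl3 and 42.7, 34.7 and 2.37 in Col-0, higher in each SCL3 OE array than on any other array but with a ratio of 1.23. For GAT1_2.1 the second probe set was dim, with 16.6, 30.4 and 38.1 in SCL3 OE, 9.67, 4.79 and 4.04 in scl3 and 36.6, 14.3 and 28.5 in Col-0, and its groups overlapped. Among the named genes, 2 pairs lie close together in the genome. The peroxidase AT5G15180 and AT5G15190 are direct neighbours, and 1 protein-coding gene lies between AT4G31450, a RING protein, and the CAP gene AT4G31470.

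Relatives of these genes were followed through 22 lists of families, pathways and cell types with 208 genes. A probe set was named for 63 of these genes, and 5 of them are members. Gibberellin metabolism and 9 further lists had no named gene. Over all tested probe sets, limma called 0.440% higher and 0.762% lower in SCL3 OE than in Col-0 at an adjusted p under 0.05, and 17.6% higher and 16.0% lower when array set was a term. In that second fit the term marks set 2 only, so any shift common to the SCL3 OE arrays stays in the difference. Of the other CAP proteins, 6 were tested, with 0 called in the group fit and 1 higher and 2 lower with the array set term. None of the 3 other tested copper amine oxidase probe sets passed in the group fit, and with the array set term 1 was higher, the median of the 3 being 0.23 in the first fit. Of the 5 other tested factors related to TINY, 1 was called, AT1G44830, which fell in SCL3 OE. It had 74.8, 32.4 and 38.4 in SCL3 OE, 204, 149 and 172 in scl3 and 208, 202 and 183 in Col-0, a log2 difference of -2.10 with an adjusted p of 0.0301 in limma, against 1.92 for TINY. With the array set term 1 of the 5 was higher and 1 lower.

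JKD, an IDD zinc finger protein that binds SHORT-ROOT and SCARECROW, was the only named ground tissue regulator. It had 159.9, 184 and 206 in SCL3 OE, 102, 88.5 and 72.1 in scl3 and 92.4, 115 and 80.4 in Col-0, and its log2 difference from Col-0 of 0.93 was not called in the group fit (adjusted p = 0.124, limma) and was called with the array set term, at 0.81 (adjusted p = 0.00709, limma). Of the iron list, F6H1 is an enzyme in the synthesis of the coumarin scopoletin. It had 2283, 2531 and 2377 in SCL3 OE, 4130.3, 4754 and 1657 in scl3 and 3539.6, 3470.0 and 1740.1 in Col-0. PYE, a bHLH regulator of iron homeostasis, had 218, 228 and 206 in SCL3 OE, 202, 222 and 178 in scl3 and 213, 224 and 168 in Col-0. Neither passed in the group fit, with adjusted p values of 0.878 and 0.853 in limma, and F6H1 was lower with the array set term (log2 difference -0.62, adjusted p = 0.000986, limma). BHLH101, the third named gene of the iron list, did not pass the filter on low signals and was not tested, and it had 214, 187 and 197 in SCL3 OE, 74.1, 96.2 and 1.27 in scl3 and 54.8, 70.5 and 1.85 in Col-0, with each SCL3 OE array above all others. Of the other lists with tested genes, no gene of the NPF2 transporters (4 tested), auxin response (4), photosynthesis (3), root hair (3), cortex (2) and dividing cells (2) passed in the group fit. With the array set term, limma called 1 higher and 1 lower NPF2 transporter, 1 higher auxin gene, 2 higher photosynthesis genes, 1 higher and 1 lower gene each of root hair and cortex and 1 lower gene of dividing cells.

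Replicate 3 of scl3 and Col-0, the arrays of set 2, were mostly low for these transcripts. The difference of set 2 from set 1 on the log2 scale had a median of -0.77 over the 170, against -0.42 over all tested probe sets. It was below 0 for 151 of 170 (88.8%, against 68.3% of all tested) and below -1 for 73 (42.9%, against 24.4%). Only 1 of the 170 was above 1, against 11.9% of all tested. The rule caps the signals of these arrays and so shapes this comparison, which is given as a description. Of the 170, 5 did not pass the filter on low signals, while all tested probe sets passed it. Both set 2 arrays lay below all 4 set 1 arrays for 115 transcripts (67.6%, against 56.6% of all tested) and above them for 7, against 23.1% of all tested.

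The wall group had the lowest median difference between the sets of the 7 groups. Its median was -1.58 and 11 of its 13 genes were below -1, while the metabolic enzymes had a median of -0.40 with 3 of 14 below -1. Kinases and signalling proteins had a median of -1.07 with 5 of 10 below -1. AT5G51500 (-3.68), AT1G74770 (-3.14), AT1G19900 (-3.07) and APS4 (-2.07) had low set 2 arrays, with values on the log2 scale. UGT73B1 (0.08), GAT1_2.1 (0.10), AT1G76590 (-0.08) and ACT11 (-0.00) had nearly the same signal in both sets.

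**Figure D4:**
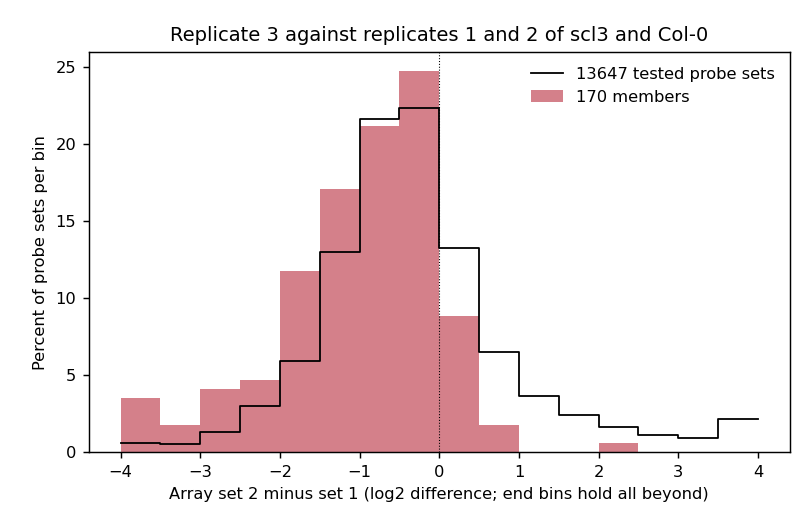
Distribution of the log2 difference between replicate 3 (array set 2) and replicates 1 and 2 (array set 1) of scl3 and Col-0, as percent of probe sets per bin of 0.5, for the 170 transcripts (bars) and all 13647 tested probe sets (line). The bars lie further to the left, with 42.9% below -1 against 24.4%.

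None of these transcripts that could be tested was called between scl3 and Col-0, which does not show that their levels were the same. The rule treats scl3 and Col-0 alike and so does not choose the direction of their difference, which was tested. The group fit and the fit with array set as a term also take part of their spread from the SCL3 OE arrays. The rule favours SCL3 OE arrays that lie close together, which can lower the p values of members there. The shares under 0.05 from these fits are therefore a description. The last fit below leaves the SCL3 OE arrays out. Of the 170, 165 passed the filter on low signals and 0 were called between scl3 and Col-0 by limma at an adjusted p under 0.05, against 0.00733% of all tested probe sets (1 of 13647). In the group fit 2 of the 165 had an unadjusted p under 0.05 (1.21%, against 0.366% of all tested). Both were lower in scl3, against 33 of 50 for all tested. With array set as a term, again 0 were called, against 0.00733% of all tested, and 33 had an unadjusted p under 0.05 (20%, against 8.38%). Of these 33, 26 were lower in scl3, against 574 of 1143 for all tested. The lowest adjusted p among the members was 0.180 in limma. A further fit took the replicate number as a block over the 6 scl3 and Col-0 arrays, although pairing within set 1 was not shown. There 0 of 151 tested members were called, against 0.00733% of all tested in that fit, with a lowest adjusted p of 0.863 in limma. An unadjusted p under 0.05 was found for 19 (12.6%, against 5.69%). Of these 19, 16 were lower in scl3, against 378 of 777 for all tested.

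Most of the 170 were a little lower in scl3 than in Col-0, with none of the differences called. The median log2 difference was -0.08, against 0.00 over all tested probe sets, and 116 of 170 were below 0 (68.2%, against 48.9%). The difference was beyond 0.5 in either direction for 18 of 170 (10.6%, against 2.04% of all tested). The shares over the 170 include 5 dim members that did not pass the filter on low signals, while all tested probe sets passed it. The sign of the median changed when some single arrays were left out. The median was 0.01 and 0.05 without Col-0 replicate 1 or 2 and 0.19 without scl3 replicate 3. Each of these leaves the array sets unequal between the groups. Within set 1, the median was -0.06 with 112 lower (65.9%, against 48.5%), and within set 2, with 1 array a group, -0.12 with 104 lower (61.2%, against 49.9%). In both sets 72 were lower (42.4%, against 24.6%) and 26 higher (15.3%, against 26.2%). All scl3 arrays lay below all Col-0 arrays for 5 of the 165 tested members, against 1.28% of all tested, and above them for 0, against 0.982%. Of these 5, AT4G01140, AT1G31710 and ACT11 are named. On the second probe set of AT1G31710, scl3 and Col-0 overlapped.

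The 5 named genes with the smallest unadjusted p in the group fit were all lower in scl3, and none passed, with adjusted p values of 1.00 in limma. AT1G31710 had a log2 difference of -0.89 ± 0.32 (SE), -0.43 in set 1 and -1.80 in set 2. The second, brighter probe set of AT1G31710 had only -0.17, with scl3 and Col-0 overlapping. AT2G44380 had -0.54 ± 0.23, AT4G01140 -0.35 ± 0.19, AT4G22460 -0.91 ± 0.58 and AT1G76590 -0.34 ± 0.23. For AT4G22460 the difference was -0.60 in set 1 and -1.53 in set 2. APS4 (-0.03), SBT4.12 (-0.01), SIM (-0.04) and CML43 (-0.02) stood near 0. Differences within set 2 rest on 1 array a group, and some wide ones were at low signals, such as AT5G51500 (3.74) and AT5G01700 (-3.09).

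**Figure D5:**
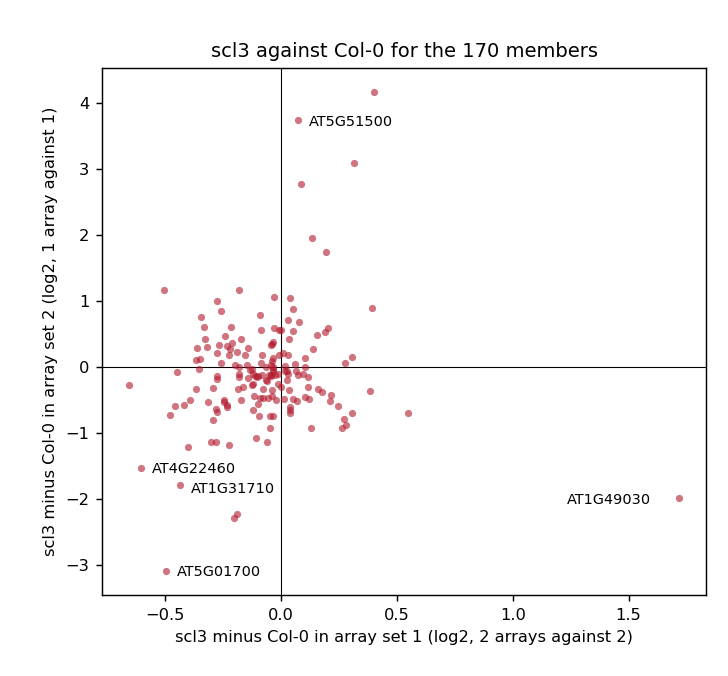
Log2 difference between scl3 and Col-0 within array set 1 (horizontal, 2 arrays against 2) and within array set 2 (vertical, 1 array against 1), 1 point per transcript. The lower left part, where scl3 is lower in both sets, holds 72 of the 170 points and the upper right part 26.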

How the data were processed

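The deposited signal intensities (linear, 1 per probe set) were made by the authors with MAS5, and the submitters' processing notes also name Affymetrix Expression Console 1.1. Each array has a trimmed mean of 500, so the values were used as deposited, with no detection calls. The 64 control probe sets were left out. Values were analysed as log2(signal + 1), and folds of dim probe sets depend on this offset. For AT1G49030 the log2 difference of SCL3 OE from Col-0 was 3.44, and 2.14 with an offset of 32. Of the 22746 plant probe sets, the 40% with the lowest mean log2 signal (up to 6.65) were dropped. The other 13647 were tested with limma 3.58.1 in R 4.3.3 (all 9 arrays, group only, intensity trend, 2-sided, Benjamini-Hochberg, threshold 0.05). A check on simulated data used independent noise on each array and no array sets, so it does not cover their effect. The number of arrays limits the precision. The submitters describe biological triplicates.

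The members and lists were chosen with earlier results of these data known. Named with values were members with a symbol, the 12 largest ratios and 8 highest mean signals among named members, threshold neighbours, list members and the 5 smallest p values in scl3 minus Col-0. Gene names came from the platform annotation, and 73 of 74 named members matched RefSeq's TAIR10.1 table. Same-numbered scl3 and Col-0 arrays deviated together (correlations of 0.90, 0.89 and 0.95), so the numbers were taken as pairs, as seen from the data. For pairs with SCL3 OE the correlations were -0.12 to 0.09. Other offsets, normalizations, filters and left-out arrays were tried as alternatives. No sequence or promoter motif was analysed here. Figures were drawn with matplotlib 3.10.9.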

Additional observations from a re-analysis of the deposited data

How the results depend on the processing

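The count of probe sets called between scl3 and Col-0 stayed at 1, and that of the 170 transcripts at 0, under every alternative run, the replicate block included. The median difference of SCL3 OE from Col-0 and from scl3 kept its sign and moved by less than the spread between replicates in the settings run. The rule selects on these contrasts, so their sign was largely fixed in advance. The median difference of set 2 minus set 1 was -0.67 after quantile normalization and -0.54 with each array centred on its median, and ran from -0.87 to -0.70 with 1 array left out. The number of transcripts found depended on the rule and on the arrays. It was 46 with a ratio of 2 and 467 without array set 2. It was 185 with a mean signal of 100, 148 with 400, 166 after quantile normalization (146 shared with the 170) and 168 with median centring (150 shared). It ran from 176 to 241 with 1 array left out, and each of these sets was counted by the same rule with its exclusions. For the 28 named members, all 728 alternative differences of SCL3 OE were above 0, the lowest at 0.52 (AT1G15740, array set as a term), and 8 of them moved by more than the spread between replicates. Members were chosen for high SCL3 OE signals, so these signs are a description and no support. The replicate block was run on the 6 scl3 and Col-0 arrays and on all 9. Signals near the floor limit the folds of dim members such as AT1G49030.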
